A study of Sus scrofa with 18 samples.

Results

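Genes for the postsynaptic scaffold of excitatory synapses and for calcium/calmodulin-dependent protein kinase II (CaMKII) were followed through gestation in the whole brain of the fetal pig. The set was chosen by name and holds 9 genes: DLG2, DLG3 and DLG4, SHANK1, SHANK2 and SHANK3, HOMER1, CAMK2A and CAMK2B. Of these, 8 were found by name among the 31908 genes of the count table, SHANK1 was not, and the 8 found were also among the 16325 genes that passed the filter on low counts. The brains were taken at gestation day (GD) 45, 60 or 90 from untreated fetuses of Landrace × Large White gilts inseminated with semen of the LR-M6 line. Each day had 3 female and 3 male fetuses, so that 18 libraries of polyadenylated RNA fell into 6 groups of sex and day. At each day the 3 litter sizes in the labels were each shared by a female and a male, and whether such fetuses were littermates was not given in the sources used here.

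The libraries held 15118843 to 19729783 counts over genes. Levels are given as CPM, the count of a gene scaled by the total of its library, and as FPKM, the CPM divided by the exonic length in kilobases, where genes are compared with each other. The neuronal identity of the tissue was seen in the summed level of 12 pan-neuronal markers, which was 8103 to 9591 CPM at GD45, 9304 to 11610 CPM at GD60 and 10200 to 11880 CPM at GD90. Skeletal muscle markers summed to 11.2 to 28.9 CPM over the libraries. A whole brain is a mixture, so that more cells of a type and more RNA per cell cannot be told apart. The male GD45 library of fetus 17 stood apart in its normalization factor, 0.849 against 0.943 to 1.07 in the other libraries. Its brain weight in the labels was 0.7135 (labelled as mg), which did not set it apart alone. The female of the same litter size had 0.6653, with a factor of 1.07, and the other GD45 fetuses had 1.55 to 1.86. Calls of the 8 genes that change without this library are given beside the results or in the closing section.

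The postsynaptic density is a protein lattice under the membrane of excitatory synapses. The DLG proteins lie nearest the membrane and anchor glutamate receptors of the NMDA and AMPA type, the SHANK proteins form the deeper layer, and HOMER1 ties SHANK proteins to metabotropic glutamate receptors and calcium stores. CaMKII, a holoenzyme built mainly of alpha (CAMK2A) and beta (CAMK2B) subunits in the forebrain, is activated by calcium and calmodulin, stays active after it phosphorylates itself, and is needed for long-term potentiation. The beta subunit also binds actin, and in rodents it is known to appear earlier in development than the alpha subunit.

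To show sequence patterns of known sites in these proteins, short coding stretches were read from the RefSeq genome of the build used for the counts (Sscrofa11.1). In the kinase genes, the capitals mark the codon of the threonine that CaMKII phosphorylates in itself, codon 286 in 4 of 9 RefSeq coding sequences of CAMK2A and codon 287 in all 15 of CAMK2B. CAMK2A was read from the minus strand of chr2:151274693-151274755 and CAMK2B from the plus strand of chr18:50937147-50937209.
CAMK2A: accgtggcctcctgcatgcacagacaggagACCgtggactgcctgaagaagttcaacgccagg
CAMK2B: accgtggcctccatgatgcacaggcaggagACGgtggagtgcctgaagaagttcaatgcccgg
These stretches shared 55 of 63 bases (87.3%), and the longest identical run between the counted exons of the genes was 26 bases. In the SHANK genes, the capitals mark a match to PPxxF (x for any residue), the proline-rich pattern that HOMER proteins bind. Each gene held 2 matches. Printed are the SHANK3 match with glutamates at both x and, as SHANK2 had none such, its first match. Binding at these stretches was not tested. They lie on the plus strand of chr2:3004459-3004533 for SHANK2 and on the minus strand of chr5:52667-52741 for SHANK3.
SHANK2: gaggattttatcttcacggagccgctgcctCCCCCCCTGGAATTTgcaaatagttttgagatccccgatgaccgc
SHANK3: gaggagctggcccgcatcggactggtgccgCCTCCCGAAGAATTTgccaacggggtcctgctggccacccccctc
They shared 40 of 75 bases (53.3%). Over the 14 pairs of members and their paralogues examined (DLG1 to DLG4, SHANK2 with SHANK3, HOMER1 to HOMER3 and the CaMKII genes), the longest identical run was between 15 and 35 bases. Exons of another gene overlapped those of HOMER1 only, where TENT2 on the opposite strand covered 286 bases, and whether the counting used strand was not given in the sources used here.

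CAMK2A rose at each step of gestation and had the smallest p-value of the 16325 genes tested from GD45 to GD60 and from GD45 to GD90 (chr2:151248356-151308658, minus strand). The level in the 6 GD45 libraries ran from 52.8 CPM over a median of 62.2 to 67.6 CPM, in the GD60 libraries from 120 over 125 to 135 CPM, and in the GD90 libraries from 604 over 631 to 687 CPM. The days did not overlap, and the coefficient of variation within a day was 4.40% to 8.59%. In the edgeR quasi-likelihood model of the 6 groups, with p-values adjusted by the Benjamini-Hochberg method over all genes tested, the log2 fold change was 1.02 ± 0.07 (SE, adjusted p = 5.47e-07) from GD45 to GD60 and 2.38 ± 0.07 (adjusted p = 6.62e-13) from GD60 to GD90. Over the whole interval the fold was 10.6.

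CAMK2B, the other main subunit gene, rose in both steps as well (chr18:50861466-50957945, plus strand). Its level ran from 120 over a median of 198 to 229 CPM at GD45, from 386 over 438 to 515 CPM at GD60 and from 799 over 865 to 895 CPM at GD90. No library of a later day was as low as any of an earlier one. The log2 fold change was 1.27 ± 0.13 (SE, adjusted p = 6.91e-06) to GD60 and 0.99 ± 0.13 (adjusted p = 9.91e-06) to GD90. The 95% interval for the second step was 0.72 to 1.26 for CAMK2B and 2.23 to 2.53 for CAMK2A, a difference between genes that was not itself tested.

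**Figure D1:**
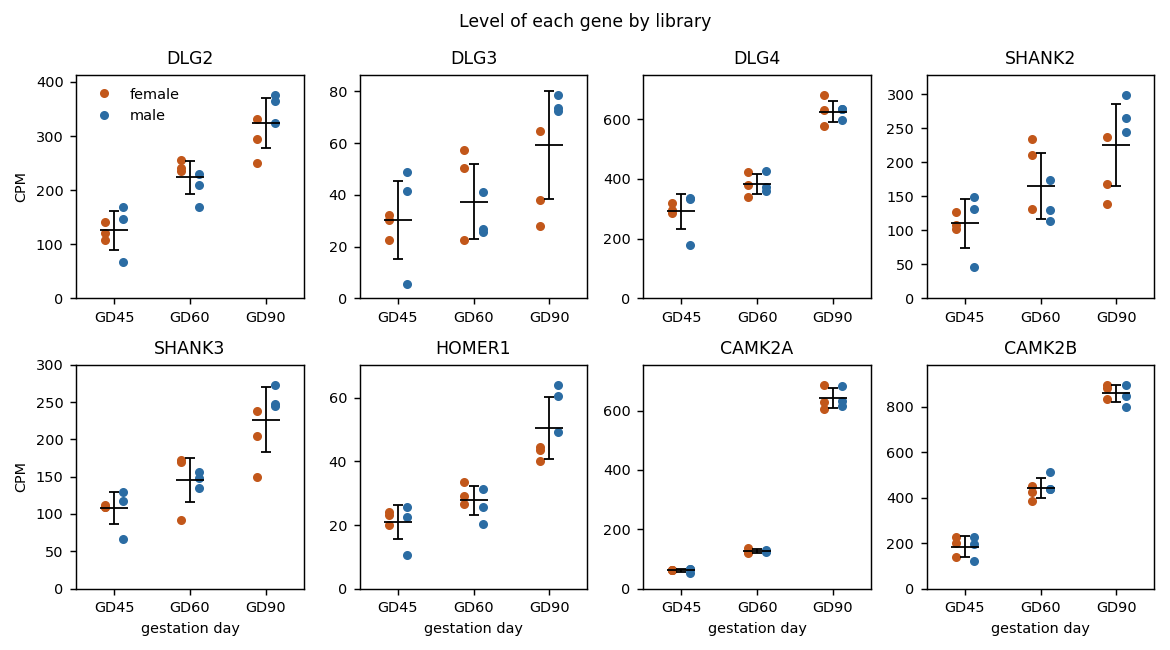
Level of each of the 8 measured genes (CPM, linear axis from 0) in every library by gestation day, with females and males in separate colours; the black dash and bars are the mean and SD of the 6 libraries of a day. CAMK2A and CAMK2B separate the 3 days without overlap, while DLG3 and SHANK2 spread widely within each day.

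Set side by side per length, CAMK2B was the most abundant CaMKII gene at each day, and the place of CAMK2A changed. CAMK2A measured 12.8 ± 1.1 FPKM (SD, n = 6) at GD45, 25.9 ± 1.14 FPKM at GD60 and 132 ± 7.13 FPKM at GD90. CAMK2B measured 39.0 ± 9.61, 93.5 ± 8.94 and 182 ± 8.23 FPKM at the same days. The other CaMKII genes changed less: CAMK2D, for the delta subunit, went from 14.2 over 15.6 to 22.3 FPKM, and CAMK2G, for the gamma subunit, from 23.7 over 32.8 to 45.6 FPKM.

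As a share of the summed FPKM of these 4 genes, CAMK2A made up 12.9% to 17.4% in the GD45 libraries, 14.9% to 16.5% in the GD60 libraries and 33.6% to 35.7% in the GD90 libraries. The GD45 and GD60 ranges overlapped and the GD90 range lay above both. The share of CAMK2B was 37.9% to 48.2%, then 53.9% to 60.8%, then 45.5% to 49.5%. The share of CAMK2G went from 24.8%–28.6% at GD45 to 11.2%–12.7% at GD90 while its level was higher at GD90. These shares were chosen after the levels were seen and are given without a test.

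**Figure D2:**
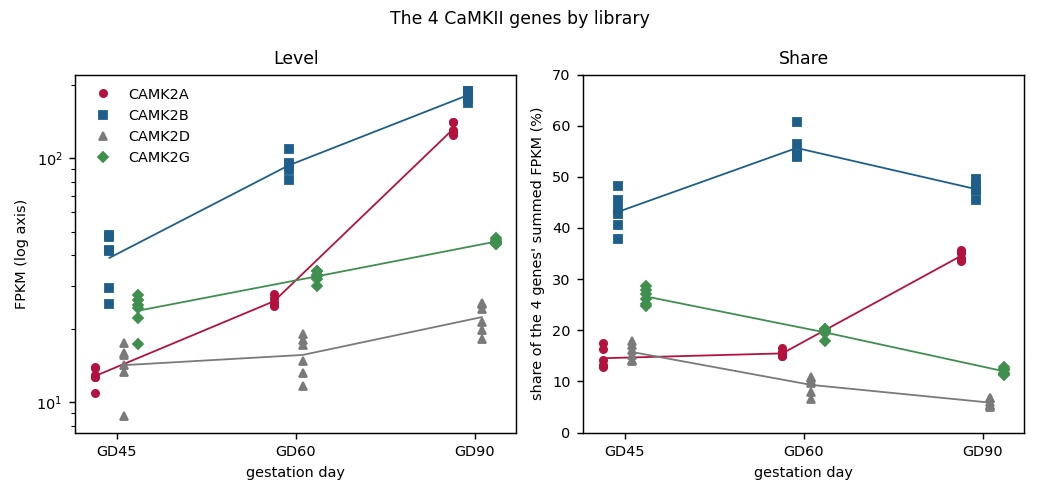
The 4 CaMKII genes in every library by gestation day: level in FPKM on a log axis (left) and share of their summed FPKM in % (right), with lines through the mean of each day. CAMK2A lies between CAMK2D and CAMK2G at GD60 and below CAMK2B at GD90, where its share is 33.6% to 35.7%.

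Among the DLG genes, DLG4 (PSD-95, the most studied scaffold of mature excitatory synapses; chr12:52550141-52575156, minus strand) was the most abundant per length. Its level ran from 180 over a median of 307 to 336 CPM at GD45, from 341 over 377 to 426 CPM at GD60 and from 578 over 631 to 681 CPM at GD90, with no overlap between days. It rose by 0.41 ± 0.10 on the log2 scale (SE, adjusted p = 0.00748) to GD60 and by 0.74 ± 0.10 (adjusted p = 1.25e-05) to GD90. DLG4 held 69.0% to 81.8% of the summed FPKM of DLG1 to DLG4 at GD45 and 69.0% to 78.3% at GD90, ranges that overlapped.

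DLG2 (PSD-93, a close relative of DLG4; chr9:17576135-19546887, minus strand) ran from 67.8 over a median of 131 to 170 CPM at GD45, from 169 over 233 to 255 CPM at GD60 and from 250 over 328 to 376 CPM at GD90. Neighbouring days overlapped, each through its outermost libraries. The log2 fold change was 0.84 ± 0.14 (SE, adjusted p = 6.24e-04) to GD60 and 0.56 ± 0.14 (adjusted p = 0.00417) to GD90.

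DLG3 (SAP102, a scaffold known for immature synapses; chrX:56472305-56527991, plus strand) was the most variable of the 8 genes. Its level ran from 5.41 over a median of 31.3 to 48.8 CPM at GD45, from 22.7 over 34.0 to 57.2 CPM at GD60 and from 28.0 over 68.5 to 78.6 CPM at GD90. All days overlapped, and the coefficient of variation within a day was 35.4% to 50.2%. The changes of 0.31 ± 0.33 (SE, adjusted p = 0.578) to GD60 and 0.68 ± 0.33 (adjusted p = 0.113) to GD90 on the log2 scale did not pass the test, with 95% intervals of -0.40 to 1.02 and -0.03 to 1.39. Without the male GD45 library of fetus 17 the second step of DLG3 passed (adjusted p = 0.01). Over the whole interval from GD45 to GD90 the change of 0.99 ± 0.34 passed (adjusted p = 0.0187). Without the female GD90 library of fetus 7 that call was lost (0.79, adjusted p = 0.0628), and with exon counts summed per gene it was lost too (0.67, adjusted p = 0.0934).

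The SHANK genes were close to each other in level. SHANK2 (chr2:2503181-3016433, plus strand) measured 13.6 ± 4.42, 20.4 ± 5.98 and 27.7 ± 7.44 FPKM (SD, n = 6) at GD45, GD60 and GD90, and SHANK3 (chr5:41786-93177, minus strand) 12.6 ± 2.52, 17.0 ± 3.44 and 26.5 ± 5.08 FPKM. SHANK2 ran from 45.4 over a median of 117 to 149 CPM at GD45, from 114 over 153 to 233 CPM at GD60 and from 139 over 241 to 299 CPM at GD90, with overlap between all days. Its log2 changes of 0.58 ± 0.20 (SE, adjusted p = 0.0545) and 0.48 ± 0.20 (adjusted p = 0.0628) did not pass in the single steps, and the change of 1.06 ± 0.20 from GD45 to GD90 did (adjusted p = 2.57e-04). The likelihood ratio test and DESeq2 called SHANK2 in both steps, with adjusted p of 0.0276 and 0.0286 in the first and 0.0447 and 0.0436 in the second. In the edgeR fit, SHANK2 passed the first step without the male GD45 library of fetus 14 (0.71, adjusted p = 0.0215), the female GD60 library of fetus 15 (adjusted p = 0.0297) or the female GD90 library of fetus 7 (adjusted p = 0.0498). It passed the second step without the male GD45 library of fetus 17 (0.48, adjusted p = 0.00768) or that of fetus 14 (adjusted p = 0.0475), the GD60 libraries of fetus 3 or 4 (adjusted p of 0.0498 and 0.0499) or the female GD90 library of fetus 2 (adjusted p = 0.0469).

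SHANK3 ran from 66.4 over a median of 111 to 130 CPM at GD45, from 92.1 over 152 to 172 CPM at GD60 and from 150 over 242 to 273 CPM at GD90. It rose by 0.44 ± 0.14 on the log2 scale (SE, adjusted p = 0.0408) to GD60 and by 0.66 ± 0.14 (adjusted p = 0.00117) to GD90. The first of these calls was a narrow one: it was lost in 14 of 18 fits that left out a library, among them that without the male GD45 library of fetus 17 (0.34, adjusted p = 0.0751), and in the fit on library size without normalization factors (0.44, adjusted p = 0.0908).

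HOMER1 (chr2:88122877-88255281, minus strand) was the least abundant of the 8 genes per length, at 3.23 ± 0.83, 4.27 ± 0.71 and 7.75 ± 1.50 FPKM (SD, n = 6). Its level ran from 10.6 over a median of 22.8 to 25.7 CPM at GD45, from 20.5 over 27.8 to 33.4 CPM at GD60 and from 40.2 over 47.0 to 64.1 CPM at GD90. Every GD90 library lay above every GD60 library. The log2 change was 0.41 ± 0.14 (SE, adjusted p = 0.0576) to GD60, which did not pass in this fit and passed in the likelihood ratio test (adjusted p = 0.0383) and DESeq2 (adjusted p = 0.0353), and 0.88 ± 0.14 (adjusted p = 9.2e-05) to GD90.

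SHANK1 was missing by name. An unnamed gene (ENSSSCG00000046848, chr6:55469897-55484107, minus strand) lies inside the RefSeq span of SHANK1 on the same strand, chr6:55452095-55496304. Of its 8 exons, 7 overlapped RefSeq exons of SHANK1 and 5 shared both ends with one, and it covered 11.3% of the RefSeq exonic bases. It measured 12.2 ± 6.32, 17.4 ± 10.1 and 32.2 ± 16.6 CPM (SD, n = 6) at GD45, GD60 and GD90. It is not counted among the 8 genes.

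Counted together, 5 of the 8 measured genes (DLG2, DLG4, SHANK3, CAMK2A and CAMK2B) passed the test from GD45 to GD60, all higher at GD60, where 16.7% of all genes tested passed and 9.35% passed as higher. From GD60 to GD90, 6 of 8 passed (DLG2, DLG4, SHANK3, HOMER1, CAMK2A and CAMK2B), all higher, where 42.4% of all genes passed and 21.4% passed as higher. From GD45 to GD90 all 8 measured genes passed as higher, where 57.5% of all genes passed and 28.3% as higher. The median log2 fold change of the 8 genes was 0.51, 0.71 and 1.22 in these comparisons, against -0.01, -0.01 and -0.03 over all genes tested. No library overlapped between the days in 3, 4 and 6 of the 8 genes, where every library of the later day was higher in 4.29%, 11.6% and 16.6% of all genes. The comparisons share the libraries of a day, so that they are not independent of each other.

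**Figure D3:**
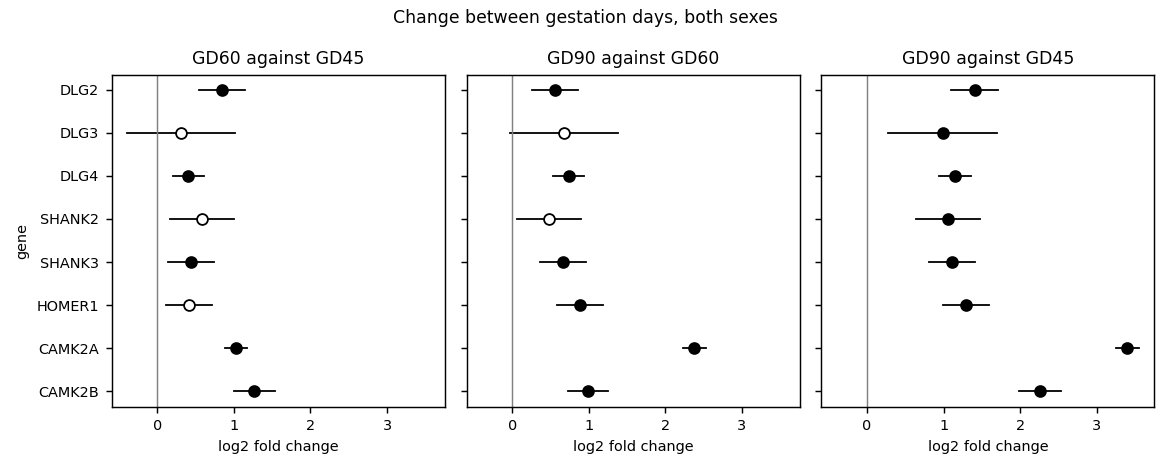
Log2 fold change of each gene between gestation days, sexes combined, with its 95% interval from the edgeR fit; filled points passed an adjusted p of 0.05 and open points did not. All 8 points lie above 0 in each comparison, and CAMK2A at 2.38 stands apart from GD60 to GD90.

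CAMK2A and CAMK2B rose in both steps in each sex, with 3 libraries a group and the spread estimated over all 6 groups. With only the GD45 and GD60 males fitted, where 0 of all genes passed, the changes of CAMK2A (0.99, adjusted p = 0.0761) and CAMK2B (1.35, adjusted p = 0.101) were of like size and did not pass. Among females, 3 of 8 genes rose from GD45 to GD60 (DLG2, CAMK2A and CAMK2B, where 7.22% of all genes passed and 4.34% as higher) and 4 from GD60 to GD90 (DLG4, HOMER1, CAMK2A and CAMK2B, where 27.1% passed and 13.7% as higher). Among males, 2 rose in the first step (CAMK2A and CAMK2B, where 5.61% passed and 3.08% as higher) and 7 in the second, all except DLG3 (where 34.5% passed and 18.5% as higher). CAMK2A changed by 2.43 ± 0.10 (SE) in females and 2.33 ± 0.10 in males from GD60 to GD90.

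In the step from GD60 to GD90, SHANK2 was the single gene of the 8 with an unadjusted p under 0.05 for a difference between the sexes. Its level in the 3 females was 131, 210 and 233 CPM at GD60 and 139, 168 and 237 CPM at GD90, and in the 3 males 114, 129 and 174 CPM at GD60 and 244, 265 and 299 CPM at GD90. The log2 change was 0.01 ± 0.28 (SE, adjusted p = 0.982) in females and 0.94 ± 0.28 (adjusted p = 0.017) in males. The test of the difference, a sex by day interaction of 0.93 ± 0.40, did not pass in the edgeR model (adjusted p = 0.232), where 0% of all genes passed and 19.8% had an unadjusted p under 0.05. DLG3 had the larger interaction, with the wider error (1.15 ± 0.67, adjusted p = 0.322). From GD45 to GD60 none of the 8 genes had an unadjusted p under 0.05 for the interaction, where 0% of all genes passed and 2.04% had one. In the interaction from GD60 to GD90, SHANK2 passed without the male GD45 library of fetus 17 (0.92, adjusted p = 0.0376), as did 2209 genes in all. That library is in none of the groups compared from GD60 to GD90. It enters through steps that all libraries share: the filter, the normalization factors and the estimate of spread. After removal of a trend on gene length, the SHANK2 interaction from GD60 to GD90 was 0.63 ± 0.31 (adjusted p = 0.337).

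Males and females were not told apart in any of the 8 genes at GD45, GD60 or GD90, where 0.0919%, 0.098% and 0.098% of all genes passed. No gene of the 8 had an unadjusted p under 0.05 by edgeR at any day, where 2.59%, 4.8% and 13.6% of all genes had one, and the likelihood ratio test and DESeq2 called none of them. At GD60, the levels of DLG2 did not overlap between the sexes, with the females higher, as was so for 5.6% of all genes tested. At GD90, the levels of 4 genes did not overlap between the sexes, each with the males higher, as was so for 22.7% of all genes tested. DLG3 measured 28.0, 38.2 and 64.5 CPM in females and 72.4, 73.4 and 78.6 CPM in males, with a log2 difference of 0.73 ± 0.47 (SE, adjusted p = 0.438). HOMER1 measured 40.2, 43.6 and 44.5 CPM in females and 49.4, 60.7 and 64.1 CPM in males, a difference of 0.38 ± 0.20 (adjusted p = 0.379). SHANK2 and SHANK3 differed by 0.52 ± 0.28 (adjusted p = 0.387) and 0.31 ± 0.20 (adjusted p = 0.429).

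A trend on gene length also differed between the sexes at GD90. For each library, the deviation of each gene from its mean of the day was regressed on the log2 exonic length of the gene. This slope was -0.107 to -0.01 in the GD90 females and 0.0362 to 0.0771 in the GD90 males, without overlap. With the trend removed, the GD90 difference between males and females was 0.33 in SHANK2, 0.11 in SHANK3, 0.23 in HOMER1 and 0.77 in DLG3. The part of this trend in the sex differences was otherwise not tested.

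Within a day, the spread of some of these genes moved with the same trend. Over the 18 libraries, which share their day means, the correlation of the deviation from the day mean with the slope was 0.97 for SHANK2, 0.93 for DLG3, 0.83 for HOMER1, 0.79 for DLG2, 0.69 for SHANK3 and 0.55 for DLG4. For CAMK2A it was -0.09 and for CAMK2B 0.04. Among all genes tested, the percentile of this correlation was 99.8 for SHANK2, 97.9 for DLG3 and 89.9 for HOMER1. It was 86.9 for DLG2, 80.3 for SHANK3, 72.6 for DLG4, 45 for CAMK2A and 50.6 for CAMK2B. The male GD45 library of fetus 17 had the lowest slope, -0.146, and the lowest CPM of its day in each of the 8 genes. With its normalization factor applied it was the lowest in 6 of them, and not in CAMK2A (5.96 log2 CPM, against 5.84 in the lowest library) or CAMK2B (7.14 against 7.01). The exonic lengths of the 8 genes run from 3000 bases in DLG3 to 10381 in DLG2, around a median of 4186 over all genes tested, so that length alone did not order the correlations. With the trend removed, the calls in the comparison of GD90 with GD45 were all kept, and SHANK2 changed by 0.98 ± 0.16 (SE, adjusted p = 4.72e-05) and DLG3 by 0.99 ± 0.35 (adjusted p = 0.0207).

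**Figure D4:**
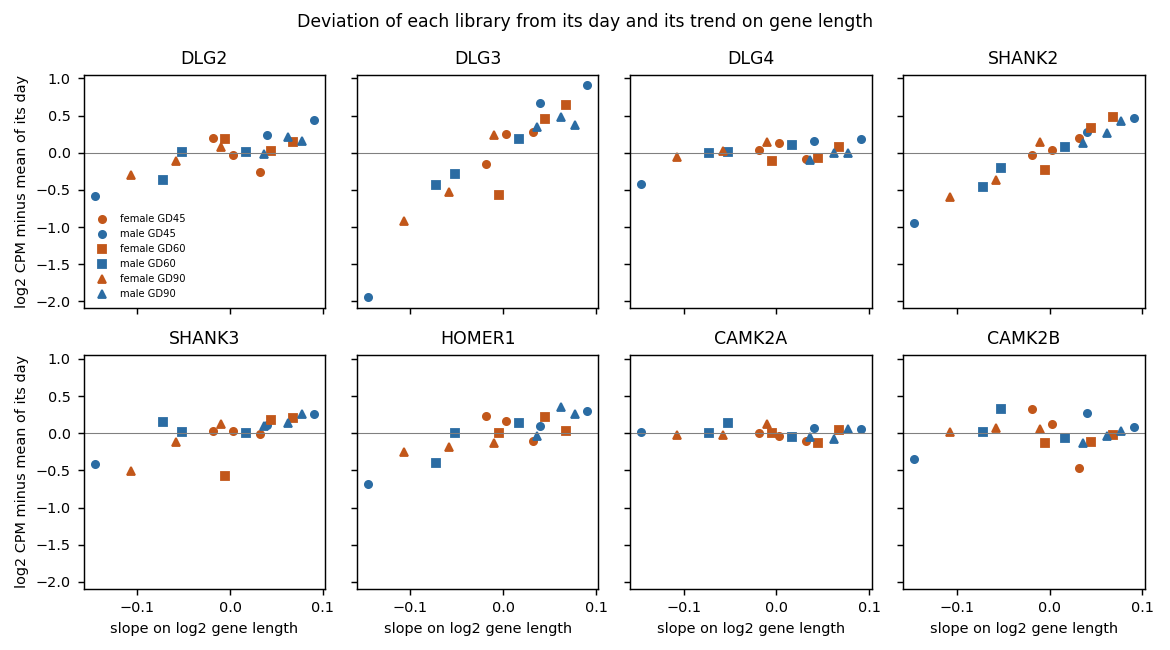
Deviation of each library from the mean of its day (log2 CPM) against the slope of that library on log2 gene length, for each of the 8 genes; colours mark sex and symbols the day, n = 18 libraries. SHANK2 and DLG3 climb with the slope (correlations of 0.97 and 0.93), while CAMK2A stays flat (-0.09).

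At the level of exons, 93 of the 285 exons listed for the 8 genes passed the filter. Usage, the change of an exon relative to its gene, passed the edgeR exon test in 0 of 93 from GD45 to GD60 and in 0 of 93 from GD60 to GD90, where 0.0443% and 0.264% of the 76800 exons tested passed. An unadjusted p under 0.05 was found in 10 and 12 of the 93 exons, which is 1 to 4 exons of a gene where there were any, against 6.83% and 6.15% of all exons. The exon test after a quasi-likelihood fit also called none of them. In simulated counts for GD60 against GD45, the exon test recovered 52.5% of 4-fold changes placed in the most abundant exon of a gene. Changes of usage in these exons may therefore have been missed.

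Of the 27 exons listed for CAMK2A, 16 were tested. From GD60 to GD90 each of these 16 was higher, by 2.36 to 3.77 on the log2 scale of mean CPM. From GD45 to GD60, 14 of the 16 were higher, and the changes ran from -0.18 to 2.73. The exon of 84 bases that holds the autophosphorylation codon printed above measured 0.19 ± 0.10, 0.51 ± 0.23 and 4.20 ± 1.13 CPM (SD, n = 6) at GD45, GD60 and GD90, from 1 to 94 counts a library. Its counterpart in CAMK2B, of equal length, measured 1.31 ± 0.61, 3.58 ± 0.81 and 5.96 ± 1.78 CPM. The SHANK3 exon with the PPxxF stretch printed above measured 25.7 ± 9.27, 39.2 ± 12.2 and 67.6 ± 20.2 CPM. The printed SHANK2 stretch lay in 3 exon entries, all listed at 0 in every library, while the gene had 688 to 4518 counts a library. How reads on entries that overlap were counted was not given in the sources used here. These values of 0 therefore do not show that the stretch was not expressed. The exon table held 5.85% of the gene counts for DLG2, 16.6% for CAMK2A, 65.6% for CAMK2B and 84% for SHANK3, so that exon levels cannot be compared between genes. In the transcript table only SHANK3 kept most of its counts (87.8%), nearly all under a single transcript, which measured 95 ± 17.3, 126 ± 24.4 and 197 ± 33.6 CPM.

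Other scaffold and adaptor genes of the same density changed in both directions. Of 40 listed partners, 39 were measured. From GD45 to GD90 23 rose, 4 fell and 12 did not pass, where 57.5% of all genes passed and 28.3% rose. The median log2 change was 0.89, against -0.03 over all genes tested. ACTN2, which crosslinks actin in spines, rose from 1.98 over 5.52 to 34.1 CPM, by 2.67 ± 0.17 on the log2 scale (SE, adjusted p = 5.38e-09) from GD60 to GD90. LIN7A, a partner of CASK, fell by 0.53 ± 0.13 on the log2 scale from GD60 to GD90 (adjusted p = 0.00276).

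DBN1, for drebrin, an actin-binding protein of growing neurites and spines, fell from 1019 over 857 to 609 CPM. It was the single partner that fell from GD45 to GD60 (16 rose, where 16.7% of all genes passed and 9.35% rose). From GD60 to GD90, 19 partners rose and 4 fell, where 42.4% of all genes passed and 21.4% rose. Among the paralogues of the members, DLG1 and HOMER2 rose by 1.17 and 1.03 on the log2 scale from GD45 to GD90 (adjusted p of 2.42e-05 and 2.91e-08), and HOMER3 did not pass (-0.31, adjusted p = 0.137). Per length, HOMER3 held 61.5% to 80.4% of the summed FPKM of the 3 HOMER genes at GD45 and 35.7% to 55.0% at GD90, while the share of HOMER1 went from 5.11%–14.4% to 17.4%–29.3%.

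Most of the measured genes of calcium and calmodulin signalling rose over the whole interval. Of 21 listed genes, 18 were measured. From GD45 to GD90 17 rose, none fell and 1 did not pass, with a median log2 change of 1.14, where 28.3% of all genes rose. In the single steps 10 and 14 of the 18 rose and none fell, where 9.35% and 21.4% of all genes rose. NRGN, for neurogranin, which binds calmodulin in spines, had the largest change of the list, from 22.5 over 101 to 1016 CPM, or 3.35 ± 0.17 on the log2 scale (SE, adjusted p = 3.42e-10) from GD60 to GD90. CAMK2N1, an endogenous inhibitor of CaMKII, rose from 182 over 214 to 393 CPM, and PPP3R1, the regulatory subunit of calcineurin, the phosphatase that works against the kinase, from 135 over 167 to 366 CPM. GAP43, a calmodulin-binding protein of growing axons, was the gene that did not pass, at 481, 485 and 528 CPM (log2 change 0.14, adjusted p = 0.408).

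Of the 5 listed scaffold genes of inhibitory synapses, 3 were measured. None passed from GD45 to GD60, 2 rose from GD60 to GD90 and all 3 from GD45 to GD90, with a median log2 change of 0.38. Over all genes tested, 9.35%, 21.4% and 28.3% passed as higher in these comparisons. GPHN, for gephyrin, changed by 0.38 (adjusted p = 0.00115) and IGSF9B by 2.54 (adjusted p = 8.54e-05) over the whole interval.

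**Figure D5:**
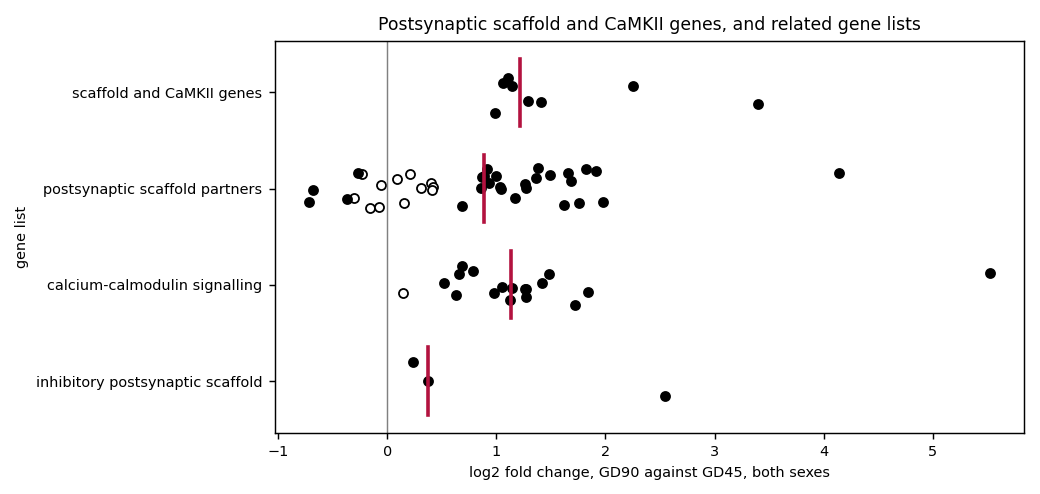
Log2 fold change from GD45 to GD90, sexes combined, of the 8 scaffold and CaMKII genes and of the genes of related lists; filled points passed an adjusted p of 0.05, open points did not, and red bars are list medians. The 8 genes lie from 0.99 to 3.40, and the partner list reaches below 0.

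Levels of cell type markers also changed over the same interval. Pan-neuronal markers had 6 of 12 higher and none lower from GD45 to GD90, and TUBB3 fell from GD60 to GD90 (log2 change -0.38, adjusted p = 0.0424) while SYN1 rose (1.37, adjusted p = 1.55e-08). Summed neural progenitor markers went from 1320–1554 CPM at GD45 to 472.5–614 CPM at GD90, with 6 of 6 measured markers lower (NES by -2.31 on the log2 scale from GD45 to GD90, the interval and scale of the changes that follow). Summed oligodendrocyte markers went from 98.4–158 to 1995–3408 CPM (8 of 8 higher, ERMN by 5.85) and astrocyte markers from 188–400 to 1628–2175 CPM (6 of 7 higher, SLC1A2 by 3.63). Microglial markers went from 96.8–138 to 183–277 CPM (8 of 8 higher, CX3CR1 by 1.92). Endothelial markers went from 340–439 to 401–512 CPM (3 of 6 higher, FLT1 by 1.31), erythroid markers from 264–665 to 94.3–171 CPM (5 of 6 lower, HBE1 by -2.66) and choroid plexus markers from 938–1531 to 414–927 CPM (3 of 5 lower, KCNJ13 by -1.19). Of the skeletal muscle markers, 2 of 4 tested were higher (ACTA1 by 2.90). Over all genes tested, 57.5% passed from GD45 to GD90 and 28.3% passed as higher. No measured marker was at 0 in every library. The part of these shifts in the levels of the scaffold and CaMKII genes was not tested.

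Over the 18 libraries, which share the 3 day means, the genes most like 7 of the members by Pearson correlation of log2 CPM, among 12809 genes with a symbol and a mean of at least 1 CPM, were as follows. CAMK2A was most like BRINP1 and ICAM5 (correlations of 0.997 and 0.994), the latter an adhesion molecule of telencephalic dendrites that went from 5.69 over 21.1 to 233 CPM. CAMK2B was most like DIO2, for the enzyme that activates thyroid hormone, and CAMK2G (both 0.99). DLG4 was most like DIRAS2 (0.99), DLG2 like RGL1 and MEF2C (both 0.98), and DLG3 like PCDH19 and DLC1 (0.99 and 0.98). SHANK3 was most like KIAA0930 and NAT8L (0.98 and 0.97), and HOMER1 was most like ANK2 and PRKCE (both 0.98).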

How the data were processed

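Whole fetal brains were sequenced by the authors as paired-end poly(A) libraries. Per the labels and the study's methods, reads were checked with FastQC, trimmed with Trimmomatic, mapped to Sscrofa11.1 with HISAT2 and counted with featureCounts on Ensembl annotation; multimapping and strand options were not given in the sources used here. The deposited tables hold raw read counts per gene, exon and transcript, unnormalized. The tables had 22 columns, because 4 libraries were run more than once; runs of a library were summed to 18 libraries (chi-square per degree of freedom between runs 1.61 to 1.69, against 8.54 to 25.6 for the closest replicate).

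Counts were tested with edgeR 4.0.16 (R 4.3.3): filterByExpr, TMM factors, a quasi-likelihood fit of the 6 groups of sex and day with 12 residual degrees of freedom, and Benjamini-Hochberg adjustment over 16325 genes with a threshold of 0.05. Exon usage was tested with diffSpliceDGE. P-values measure the spread between fetuses, taken as independent. Fetuses of a litter size may be littermates, and pairs of the same litter size and day had correlations of deviations from -0.0932 to 0.424. These values do not show that the fetuses were independent. If they were littermates, a day holds fewer independent units than fetuses. The main fit did not treat them as pairs, whereas the study's methods name a paired-sample analysis in edgeR. DESeq2 1.42.0, a likelihood ratio test and other filters, normalizations and samples were tried as alternatives, and the removal of a lowess trend on gene length was added after the data were seen. The fits were tested on simulated data.

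The 9 genes and all gene lists were chosen with earlier results of these data known. Named genes were all members, the 2 genes most like each, and in each list those with the largest changes from GD60 to GD90 that passed; paralogues of members, DBN1, CAMK2N1, PPP3R1, GAP43, GPHN and TENT2 were named after their values were seen. Some genes that the rule names are not reported here. Sequences came from the RefSeq genome of Sscrofa11.1; protein sequences were not used here.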

Additional observations from a re-analysis of the deposited data

Results flagged for a closer look

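The male GD45 library of fetus 17 lay far from the other 5 libraries of its day in 2 of the 24 sets of 6 libraries examined (8 genes at 3 days) by Dixon's ratio of gap to range. DLG4 measured 179.7 CPM in it, where the next lowest GD45 library had 287 CPM, and SHANK3 measured 66.4 CPM, where the next lowest had 109 CPM. Chance alone flags about 1 set in 20. The same library had the lowest normalization factor and the lowest slope on gene length.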

How the results depend on the processing

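With sexes combined, no log2 fold change of the 8 genes between days reversed under any alternative tried. From GD45 to GD60, in place of 5 genes 3 were called with exon counts summed per gene (DLG2, DLG4 and SHANK3 lost, SHANK2 gained; 1703 in place of 2730 genes in all), and 4 to 7 without single libraries, the most without the male GD45 library of fetus 14. In males, in place of 2 genes 4 were called by the likelihood ratio test, by DESeq2 or with the length trend removed (DLG2 and DLG4 gained), and 0 with only the GD45 and GD60 males fitted, where 0 of all genes passed in place of 916; 2 to 4 were called without single libraries, the most without the male GD45 library of fetus 14. In females, in place of 3 genes 3 to 5 were called without single libraries, the most without the male GD45 library of fetus 17 (DLG4 and SHANK2 gained), where 2329 genes passed in place of 1178. From GD60 to GD90 the ranges without single libraries were 6 to 8 of 8 with sexes combined (most without the male GD45 library of fetus 17), 3 to 6 in females (most without that library, DLG2 and SHANK3 gained; HOMER1 lost without the female library of fetus 3, 15, 2, 7 or 9) and 6 to 8 in males (DLG3 gained without that library), and 7 to 8 from GD45 to GD90. In the sex by day interaction from GD60 to GD90, 0 to 1 were called without single libraries; over all genes 129 were called by the likelihood ratio test, 268 by DESeq2 and 1145 with only those 4 groups fitted, and none of the 8 genes was among them. For the sexes at GD90, 1062 genes passed in place of 16 with only the GD90 libraries fitted, and none of the 8. Without the male GD45 library of fetus 17, more of all genes passed too in females from GD45 to GD60 (2329 in place of 1178). For the other ranges without single libraries in this paragraph, counts over all genes are not given. Those ranges therefore cannot be read as particular to the 8 genes. The causes of these changes in calls were not tested.

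Litter size within day as a replicate block left 0 of the 8 genes called in each comparison of the sexes and in both interactions, so it changed no call; over all genes 9, 9 and 10 passed at GD45, GD60 and GD90 in place of 15, 16 and 16. Where the female and the male of a litter size were summed, 5 genes were called from GD45 to GD60 (SHANK2 gained, SHANK3 lost) and 8 from GD60 to GD90. The count over all genes in that fit is not given here, so these calls cannot be set against it. The counts behind a level ran from 82 (DLG3) to 14657 (CAMK2B) a library.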
